A study of Mus musculus with 30 samples.

Results

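The genes described here are 10 immediate early response genes, Fos, Fosb, Jun, Junb, Egr1, Egr2, Ier2, Atf3, Dusp1 and Nr4a1, followed through 30 mouse mammary tumours. They were taken by name from the table of expression values, where each of the 10 had 1 transcript row, out of 20849 named genes in the table. The list did not use measured values as its rule, although it was chosen with earlier results of these data known. Every tumour was induced by the polyoma middle T antigen (PyMT), a viral protein that activates Src family kinases and the signalling below them. The animals were backcross mice: a cross of the wild-derived strain MOLF to PyMT mice was crossed in turn to FVB, so each animal had its own mixture of MOLF and FVB alleles. Each animal gave 1 tumour and 1 library of poly-A selected RNA, and the labels put all 30 in a single group with no treatment, time, age or control. The promoter that drives PyMT and the genotype of each animal are not given in the labels, so the comparisons below are between tumours, across genes.

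Immediate early genes are transcribed within minutes of a growth factor, stress or injury signal, from promoters whose factors are already bound and need no new protein. The ERK and p38 kinases act on serum response factor and its partners at CArG boxes, and on CREB and ATF proteins at cyclic AMP response elements (CREs). Fos and Jun proteins then pair as the transcription factor AP-1, while other early genes, such as the phosphatase gene Dusp1, switch the kinases off again. In mammary tissue the same genes respond to growth factors and to mechanical or surgical handling.

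Expression was read as RPKM, reads scaled to transcript length and library depth, which allows levels of different genes to be compared. Library depth, read from the spacing of low values, lay between 42.3 and 62.0 Mreads (mega-reads) in 16 libraries, called shallow here, and between 116.1 and 196.5 Mreads in the other 14, called deep. The mean insert size in the labels was 261 ± 12.3 bases (SD, n = 16) in shallow and 233 ± 14.7 bases (SD, n = 14) in deep libraries. The pieces held other cells besides epithelium. The summed level of 6 luminal epithelial markers ran from 1191 to 2616 RPKM, that of 12 macrophage markers from 459.7 to 1187 RPKM, and that of 9 skeletal muscle genes from 18.5 to 15018 RPKM. In such bulk samples fewer cells of a type and less RNA per cell cannot be told apart. Because each animal is 1 library, all errors below hold technical spread as well as the spread between animals.

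Promoter sequence was at hand for 8 of the 10 genes, from RefSeq on GRCm38.p6. Of these, 4 are shown, all of which held searched motifs and had transcripts in pairs that moved together below. Each line is the 250 bases before the start site, 5′ to 3′ on the gene's own strand. Capitals mark the searched motifs other than GC boxes.
Fos promoter, chr12:85473640-85473889 (+ strand): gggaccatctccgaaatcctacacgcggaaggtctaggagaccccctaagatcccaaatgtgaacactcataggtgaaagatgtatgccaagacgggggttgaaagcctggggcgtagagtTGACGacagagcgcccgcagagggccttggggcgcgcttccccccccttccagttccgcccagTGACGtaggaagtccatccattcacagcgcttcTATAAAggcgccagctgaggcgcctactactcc
Jun promoter, chr4:95052223-95052472 (- strand): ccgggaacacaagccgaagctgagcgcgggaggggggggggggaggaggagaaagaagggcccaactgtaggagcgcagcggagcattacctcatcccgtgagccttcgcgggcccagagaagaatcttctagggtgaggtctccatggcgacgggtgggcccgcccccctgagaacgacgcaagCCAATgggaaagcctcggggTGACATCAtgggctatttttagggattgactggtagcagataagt
Junb promoter, chr8:84978749-84978998 (- strand): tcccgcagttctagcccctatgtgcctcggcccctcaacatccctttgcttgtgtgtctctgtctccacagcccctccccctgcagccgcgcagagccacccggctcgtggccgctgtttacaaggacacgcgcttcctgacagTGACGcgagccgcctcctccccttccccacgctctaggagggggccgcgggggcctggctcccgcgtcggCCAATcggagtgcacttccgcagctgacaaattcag
Dusp1 promoter, chr17:26508473-26508722 (- strand): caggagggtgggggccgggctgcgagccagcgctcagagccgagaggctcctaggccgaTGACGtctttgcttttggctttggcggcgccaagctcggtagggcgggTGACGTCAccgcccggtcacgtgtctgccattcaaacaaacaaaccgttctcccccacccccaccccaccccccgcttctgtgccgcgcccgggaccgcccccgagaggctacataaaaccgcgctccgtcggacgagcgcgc

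The Fos window held a TATA box (TATAAA) at 33 to 28 bases before the start, and the CRE core TGACG at 66 to 62 and at 129 to 125 bases before it. The Jun window held the variant element TGACATCA, to which Jun and ATF proteins are known to bind, at 45 to 38 bases, and a CCAAT box at 65 to 61 bases before the start. In Junb a TGACG lay at 106 to 102 bases and a CCAAT box at 36 to 32 bases before the start. The Dusp1 window was the only one of the 8 with a full CRE (TGACGTCA), at 143 to 136 bases before the start, and it held another TGACG at 191 to 187. Egr2, not shown in full, has several start sites in the table. The window chr10:67537619-67537868 (+ strand) held the CArG box CCATATATGG at 72 to 63 bases before the start, while the first listed Egr2 window held none.

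All motifs were searched on both strands in the first listed window of each gene, and a match is a description of letters and not of a bound site. TGACG, which lies within the full CRE, was found in 6 of the 8 genes and in 17.9% of 27025 promoter windows of the same length. TGACATCA was found in 1 of 8 against 3.02%, the full CRE in 1 of 8 against 1.62%, and TATAAA in 1 of 8 against 12.97%. The AP-1 element TGACTCA was found in none of the 8 windows and in 4.43% of all windows. The CArG box was found in none of the 8 and in 1.40% of all windows, although later listed Egr2 windows held it. Bases farther upstream than the windows were not searched, and Egr1 and Ier2 had no window. The count therefore cannot show whether Fos or the other genes lack CArG boxes. GC boxes (GGGCGG), which bind Sp1 and overlap Egr sites, were found in 7 of 8 against 32.9%, and CCAAT in 2 of 8 against 34.5%. The 8 windows held 58.4% (Fos) to 74.4% (Nr4a1) G and C, and the 27025 windows were not matched to them for base composition.

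All 10 genes were detected in every tumour, at mean levels that ran from 2.03 RPKM for Fosb to 46.6 RPKM for Ier2. Ier2, a small nuclear protein gene, was the highest at 46.6 ± 11.5 RPKM (SD, n = 30). It was followed by Junb at 34.6 ± 12.4, Jun at 28.99 ± 6.48, Egr1 at 26.6 ± 9.75 and Fos at 21.9 ± 7.97 RPKM (SD, n = 30 each). Nr4a1 stood at 16.1 ± 6.10, Dusp1 at 10.04 ± 3.03, Atf3 at 7.93 ± 3.56, Egr2 at 2.09 ± 0.777 and Fosb at 2.03 ± 0.958 RPKM (SD, n = 30 each). Only 3 of the 9 steps between neighbours in this order exceeded the spread of the ratio over tumours. Ier2 was above Junb in 27 of 30 tumours, Nr4a1 above Dusp1 in 26, and Atf3 above Egr2 in 30. Junb and Jun, Jun and Egr1, Egr1 and Fos, Fos and Nr4a1, Dusp1 and Atf3, and Egr2 and Fosb each differed by less than 1 SD of their log2 ratio. Egr2, for example, was above Fosb in 17 of 30 tumours. The plot of levels by gene shows this order and the few tumours that stand above the rest.

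**Figure D1:**
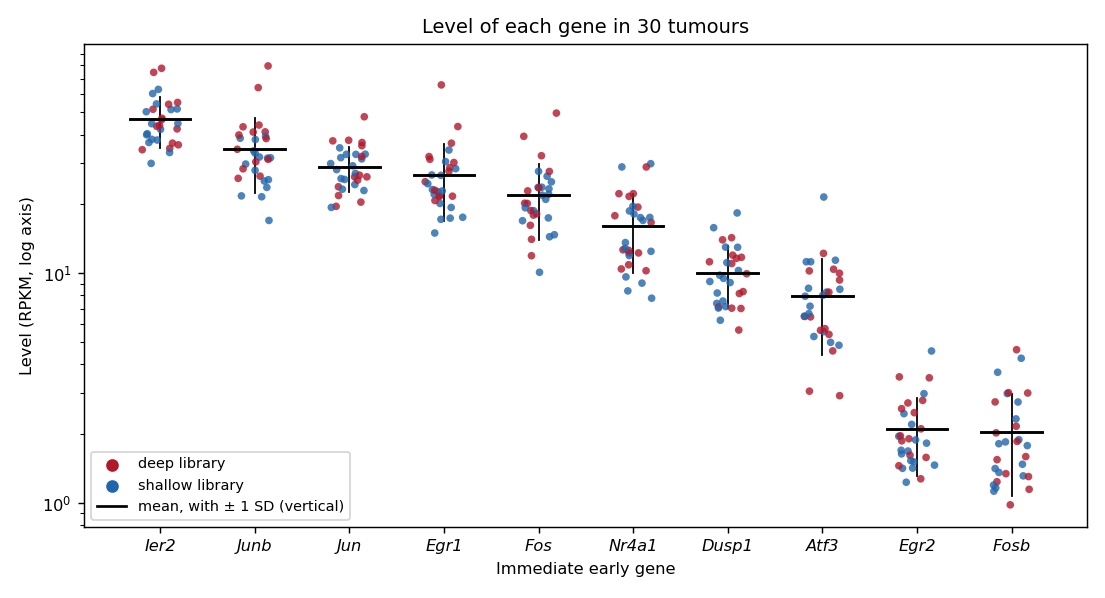
Level of each of the 10 genes in RPKM on a log axis, 1 point per tumour, with deep libraries in red and shallow ones in blue. Horizontal lines are means over 30 tumours and vertical lines ± 1 SD; Ier2 has the highest mean (46.6 RPKM) and Fosb the lowest (2.03 RPKM), and single tumours stand far above the others for Junb, Egr1, Fos and Atf3.

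The genes varied more between tumours than most genes did. The SD of log2(RPKM + 1) was above the median SD of all tested genes (0.27) for 10 of 10, against 49.996% of all 13613 tested genes, those whose mean reached 1 RPKM. It was largest for Atf3 (0.52) and Nr4a1 (0.50), which exceeded 89.5% and 88.2% of tested genes. The spread was smallest for Jun (0.30), above 60.0% of tested genes, and Egr2 (0.32), although Egr2 is a low gene for which the added 1 compresses differences. The highest tumour was 7.32 times the lowest for Atf3 and 2.48 times the lowest for Jun.

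Fos and Fosb encode AP-1 partners that cannot pair with themselves and need a Jun protein. Fos was lowest at 10.1 RPKM in animal 4547, had a median of 20.5, and was highest at 49.6 in animal 4139, followed by 39.3 in animal 4016 and 32.4 in animal 4042. Those 3 tumours, all deep libraries, stood above the rest of the distribution, whose upper quartile was 23.6 RPKM. Fosb, best known for a long-lived form of its protein in nerve cells, ran from 0.98 RPKM in animal 4038 over a median of 1.79 to 4.64 in animal 4139, with 4.26 in animal 4516 close to it. The highest tumour was the same for both genes. Within the Fos family, Fos held 48.7 ± 8.03% of the summed RPKM (SD, n = 30) and was the highest member in 23 tumours. Fosl2, a family member that responds later, was the highest in the other 7 and held 38.6 ± 7.18% (SD, n = 30).

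Jun and Junb are the AP-1 partners that also pair among themselves, and Junb often opposes Jun. Jun was lowest at 19.3 RPKM in animal 4150, had a median of 27.7, and was highest at 47.8 in animal 4139, followed by 37.8 in animal 4042. Junb ran from 16.9 RPKM in animal 4547 over a median of 31.8 to 79.6 in animal 4042, with 64.1 in animal 4139 and 44.0 in animal 3871. So for Junb 2 tumours were well apart from the other 28, while for Jun only animal 4139 was. The most abundant Jun family transcript in 30 of 30 tumours was Jund, which is less dependent on signals, at 77.3 ± 23.6 RPKM (SD, n = 30) and 54.5 ± 3.87% of the family sum. Junb held 24.5 ± 4.17% (SD, n = 30), and Jun between 13.8 and 27.8%.

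Egr1 and Egr2 encode zinc finger factors that bind GC-rich sites. Egr1 was lowest at 14.9 RPKM in animal 4378, had a median of 23.8, and was highest at 65.8 in animal 4042, followed by 43.4 in animal 4139 and 36.7 in animal 4488. The tumour with the most Egr1 was thus also the tumour with the most Junb and the most Ier2. Egr2 ran from 1.23 RPKM in animal 4315 over a median of 1.87 to 4.58 in animal 4438. Egr1 was the highest Egr transcript in 30 of 30 tumours and held 81.8 ± 6.61% of the family sum, while Egr2 held 6.60 ± 1.95% (SD, n = 30 each).

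Ier2, Atf3, Dusp1 and Nr4a1 lie outside the Fos, Jun and Egr families. Ier2 ran from 29.98 RPKM in animal 4357 over a median of 44.3 to 77.7 in animal 4042, with 74.6 in animal 4139. Atf3, a CREB family repressor induced by many stresses, ran from 2.93 RPKM in animal 4461 over a median of 7.55 to 21.4 in animal 4438, where the next tumour reached 12.2. Animal 4438 also had the most Egr2 and the highest summed level of 10 hypoxia genes, 1689 RPKM against a median of 1023, and the part of that state in Atf3 was not tested. Dusp1, the phosphatase that removes phosphate from p38, JNK and ERK, ran from 5.65 RPKM in animal 4459 over a median of 9.63 to 18.3 in animal 3273. Nr4a1 (Nur77), an orphan nuclear receptor, ran from 7.77 RPKM in animal 4357 over a median of 15.1 to 29.9 in animal 3273, and held 87.2 ± 5.88% of the Nr4a family sum (SD, n = 30). Dusp1 and Nr4a1 shared their highest 2 tumours, animals 3273 and 4315.

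Seen by tumour, the high values were gathered in a few animals. Animal 4139 was among the 5 highest tumours for 7 of the 10 genes, and animal 4042 for 6; all 10 genes were above their median in both. Animals 3871 and 4488 were among the 5 highest for 5 genes each. Animal 3427 also had all 10 above the median but was among the 5 highest only for Dusp1. At the other end, animals 4038 and 4461 were among the 5 lowest for 5 genes each, and animals 4150 and 4547 had 1 gene of 10 above the median. A low tumour was not low throughout: animal 4150 was among the 5 lowest for Jun, Egr2, Atf3 and Nr4a1, yet its Ier2 (62.9 RPKM) was the third highest. Animal 3273 was among the 5 highest for Fosb, Atf3, Dusp1 and Nr4a1 and among the 5 lowest for Egr1 and Egr2.

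**Figure D2:**
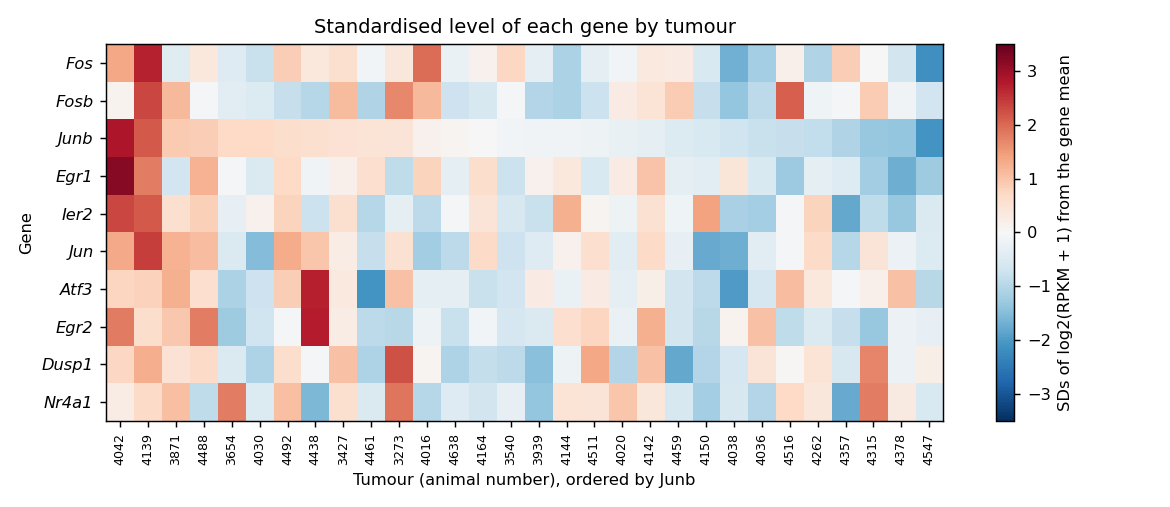
Level of each gene (rows) in each of 30 tumours (columns, by animal number, ordered by Junb), as SDs of log2(RPKM + 1) from that gene's mean. Animals 4042 and 4139 are red for most genes, while Atf3 and Egr2 peak together in animal 4438 and Dusp1 and Nr4a1 in animal 3273.

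Most of the 10 genes rose and fell together, but loosely. Of the 45 pairs, 41 had a Pearson r above 0, with a median of 0.39 and a range from -0.21 (Egr2 with Nr4a1) to 0.75 (Egr1 with Junb). The points share depth and composition of the library, so these r values are descriptions. The share of all gene pairs with r above 0 was not computed. Within the 14 deep libraries the median r was 0.51, with 44 of 45 pairs above 0, and within the 16 shallow ones it was 0.20, with 33 of 45 above 0. Pairs were then tested by regressing every one of the tested genes on each of the 10 with limma, adjusting over all tested genes with a threshold of 0.05. Of the 90 ordered pairs 10 were called, all rising together, which make up 7 of the 45 pairs. By permutation of r 7 pairs passed in at least 1 order and by rho 4. The Ier2 fit, in which 10.2% of all genes rose, gave 3 of the 10 calls. Each of the 10 calls remained with the class of depth as a covariate. Slopes below are in log2(RPKM + 1) per SD of the gene regressed on. The median slope of the 9 other genes ran from 0.09 (Nr4a1 fit) to 0.20 (Jun fit). For tested genes outside the 10 it ran from -0.02 (Junb fit) to -0.0001 (Nr4a1 fit).

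**Figure D3:**
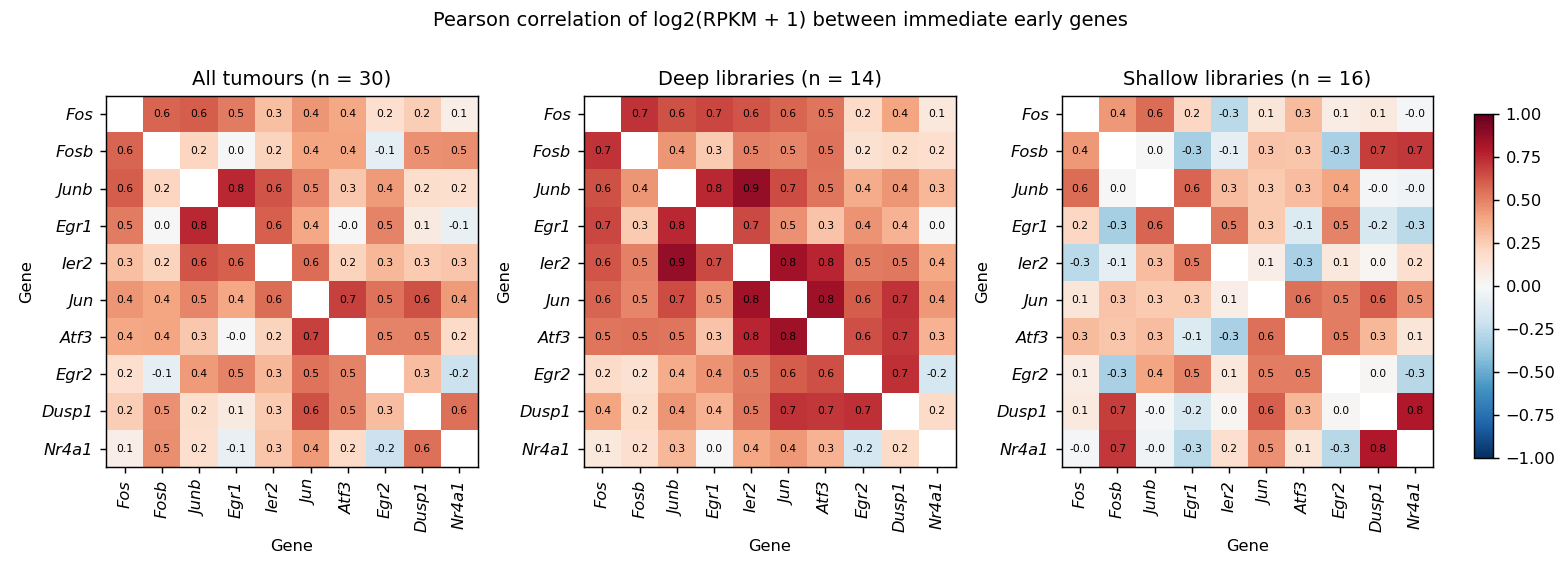
Pearson r between the log2(RPKM + 1) values of each pair of the 10 genes, over all 30 tumours (left), the 14 deep libraries (middle) and the 16 shallow libraries (right), on a colour scale from -1 to 1. The median over pairs is 0.39, 0.51 and 0.20 in the panels from left to right, and Ier2 with Jun is 0.84 in deep and 0.06 in shallow libraries.

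Atf3 and Dusp1 rose with Jun. In the Jun fit 2 of the 9 other genes were called, where 0.742% of all tested genes rose and 0.103% fell. Atf3 rose by 0.36 ± 0.07 (SE) per SD of Jun (limma adjusted p = 0.00940), and Dusp1 by 0.24 ± 0.05 (limma adjusted p = 0.0223). Both remained called in 30 of 30 fits that left out 1 tumour; without animals 4139 and 4150 together Atf3 was still called and Dusp1 was not, while Ier2 was. In the deep libraries alone Atf3 and Ier2 were called, and the slope of Dusp1 was 0.27 (limma adjusted p = 0.131). The share of all genes called in that fit was not computed. In the shallow libraries alone none was called, and the slope of Dusp1 was 0.24 (limma adjusted p = 0.285). The r of Atf3 with Jun was 0.68 and rho 0.73 (n = 30, permutation p = 3e-05 and 2e-05; adjusted over all genes 0.0132 and 0.0105), and r was 0.69 without animals 4139 and 4150, 0.85 in deep and 0.55 in shallow libraries. For Dusp1 with Jun r was 0.64 and rho 0.68 (n = 30, permutation p = 0.00018 and 7e-05; adjusted 0.0310 and 0.0167), with 0.59 without the same 2 animals, 0.72 in deep and 0.60 in shallow libraries. All 9 other genes had a positive slope on Jun with an unadjusted p under 0.05, where 7.97% of all genes rose and 7.94% fell by that measure, and their median slope was 0.20 against -0.01 for all tested genes. In the reverse fit on Atf3, 1 of 9 genes, Jun, rose by 0.21 ± 0.04 (SE; limma adjusted p = 0.0330), where 0.103% of genes rose and 0.0809% fell. That call was lost without animal 3654, 3871, 4038, 4461, 4488 or 4492.

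Junb, Egr1 and Ier2 rose together, and Fos rose with Junb. In the Junb fit 3 of 9 genes were called, where 0.669% of genes rose and 0.875% fell. Egr1 rose by 0.32 ± 0.05 (SE) per SD of Junb (limma adjusted p = 0.00137), Fos by 0.27 ± 0.07 (limma adjusted p = 0.0339) and Ier2 by 0.20 ± 0.05 (limma adjusted p = 0.0327). These calls rested on the tumours at the top: without animal 4042 none of the 3 was called, and the genes rising with Junb fell from 91 to 2 and those falling from 119 to 1. Without animal 4139 Egr1 alone of the 3 was called, and without both animals none was. The Fos call was also lost without animal 4378 or 4547 and the Ier2 call without animal 4357 or 4378. The r of Egr1 with Junb was 0.75 and rho 0.54 (n = 30, permutation p = 1e-05, the smallest possible, and 0.00246; adjusted 0.00907 and 0.129). Without animals 4042 and 4139 that r was 0.53, and it was 0.75 in deep and 0.58 in shallow libraries. For Fos with Junb r was 0.61 and rho 0.45 (n = 30, permutation p = 0.00052 and 0.0133; adjusted 0.0445 and 0.212), with 0.42 without the 2 animals, 0.64 in deep and 0.56 in shallow libraries.

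Egr1 and Ier2 gave the same links in reverse. In the Egr1 fit 1 of 9 genes was called, where 0.191% of genes rose and 0.0441% fell: Junb rose by 0.33 ± 0.05 (SE; limma adjusted p = 0.00905), a call lost without animal 4042. Ier2 was called besides it without animal 4016, 4038 or 4150. In the Ier2 fit 3 of 9 genes were called, but 10.2% of all genes rose and 11.8% fell, so calls with Ier2 were common for any gene. Junb rose by 0.28 ± 0.06 (SE; limma adjusted p = 0.00204), Egr1 by 0.25 ± 0.06 (limma adjusted p = 0.00362) and Jun by 0.17 ± 0.05 (limma adjusted p = 0.00972). The Junb call held in 30 of 30 fits with 1 tumour left out, the Egr1 call was lost without animal 4042, the Jun call without animal 4139, and without both animals none was called. Ier2 and Junb both lie on chromosome 8, with 17 protein-coding genes between them.

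The r values of Ier2 with the other genes were computed within each class of depth. Its r with Junb was 0.88 in deep and 0.31 in shallow libraries, with Jun 0.84 and 0.06, and with Atf3 0.76 and -0.32. The test of the difference in slope between the classes did not pass for any pair of the 10 genes, with a smallest limma adjusted p of 0.119 for Ier2 on Atf3. Over all 30 tumours r of Junb with Ier2 was 0.63 and rho 0.47 (n = 30, permutation p = 0.00024 and 0.00853; adjusted 0.00333 and 0.0447), and r was 0.37 without animals 4042 and 4139. For Jun with Ier2 r was 0.55 and rho 0.54 (n = 30, permutation p = 0.00153 and 0.00271; adjusted 0.0120 and 0.0201), and r was 0.37 without the same animals. Egr1 with Ier2 had r 0.60 and rho 0.42 (n = 30, permutation p = 0.0005 and 0.0219; adjusted 0.00555 and 0.0871), with 0.32 without them, 0.66 in deep and 0.52 in shallow libraries.

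The fits on Fos, Fosb, Egr2, Dusp1 and Nr4a1 called none of the other 9 genes with limma. At an unadjusted p under 0.05 the same fits had 5, 5, 4, 4 and 3 of 9 genes rising and 0 falling. By that measure the shares of all genes rising and falling were 3.01% and 6.79% with Fos, 1.65% and 1.39% with Fosb, 3.83% and 2.77% with Egr2, 6.61% and 6.79% with Dusp1, and 5.35% and 4.71% with Nr4a1. No gene of the whole table was called in the fits on Fosb, Egr2 or Dusp1 (0% rising and 0% falling), and 0.0662% rose and 0% fell with Nr4a1. Fos was the gene with the highest r of all tested genes with Fosb, 0.58, with rho 0.55 (n = 30, permutation p = 0.00058 and 0.00185; adjusted 0.9999 and 0.937), so the closest relation of Fosb did not pass the adjustment. That r was 0.50 without animals 4139 and 4516, 0.72 in deep and 0.43 in shallow libraries. Dusp1 with Nr4a1 had r 0.55 and rho 0.50 (n = 30, permutation p = 0.00174 and 0.00601; adjusted 0.242 and 0.324), and r was 0.39 without animals 3273 and 4315. In the shallow libraries Fosb, Dusp1 and Nr4a1 had r between them of 0.69 (Fosb with Dusp1), 0.71 (Fosb with Nr4a1) and 0.80 (Dusp1 with Nr4a1), against 0.19, 0.17 and 0.19 in the deep ones. The plot of pairs by tumour shows 4 of these relations.

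Counts of genes called over the whole table moved with single tumours. With 1 tumour left out, the genes rising with Jun numbered 57 (without animal 4488) to 233 (without animal 4438) against 101 over all 30. Those rising with Junb numbered 2 (without animal 4042) to 314 (without animal 4150) against 91, and those rising with Egr1 0 (without animal 4042) to 125 (without animal 4150) against 26. For Atf3 the count was 1 (without animal 3654, 3871, 4038 or 4461) to 34 (without animal 4438) against 14. For Nr4a1 it was 1 (without animal 4315 or 4438) to 40 (without animal 3273) against 9. With Ier2 the counts stayed largest, at 953 to 1448 rising and 1028 to 1684 falling, the lowest of both without animal 4042.

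**Figure D4:**
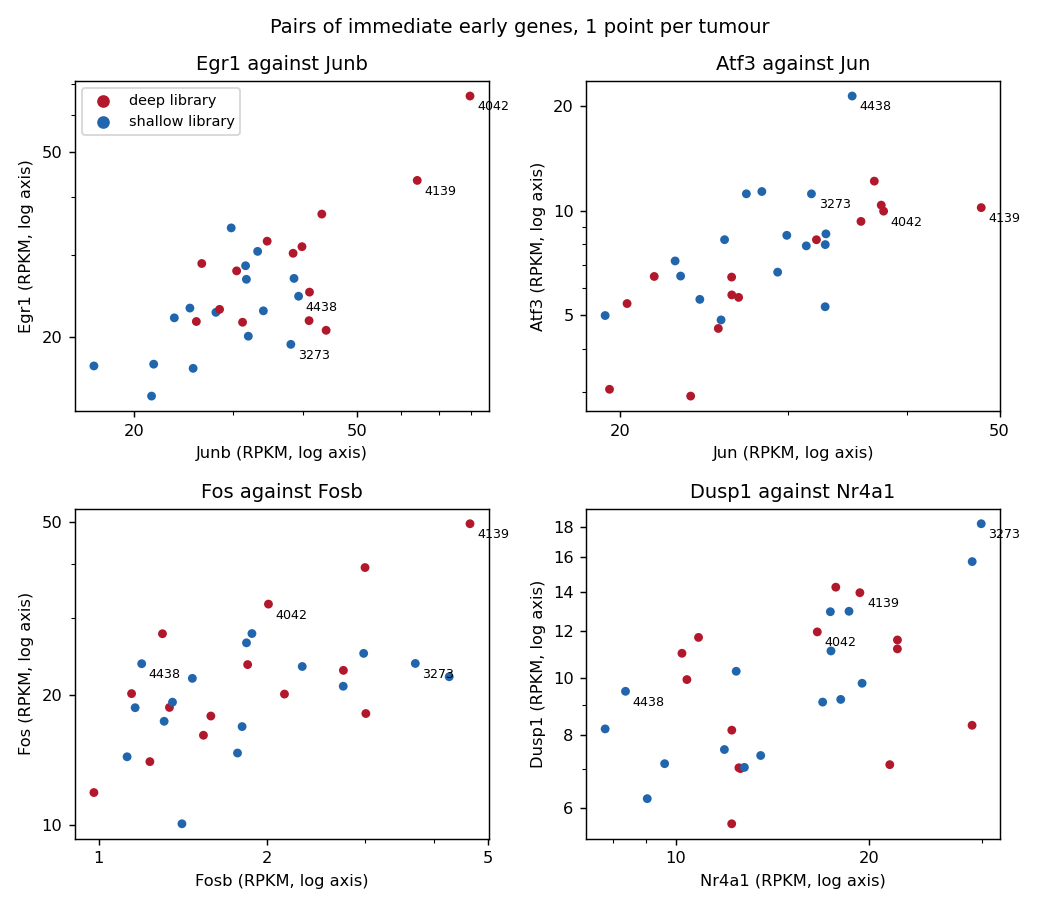
Levels of 4 pairs of genes in RPKM on log axes, 1 point per tumour, with deep libraries in red, shallow ones in blue and 4 animals numbered. For Egr1 against Junb (r 0.75) animals 4042 and 4139 lie at the upper right end, for Atf3 against Jun (r 0.68) the relation runs through the whole range, and for Dusp1 against Nr4a1 (r 0.55) it is tighter among shallow libraries.

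Of other immediate early genes, 35 were listed and 30 were abundant enough to be tested. Their means ran from 0.237 RPKM for Egr4 to 77.6 RPKM for Rhob, a small GTPase gene. None of the 30 was called with Fos by limma, with 6 rising and 1 falling at an unadjusted p under 0.05, where 3.01% of all genes rose and 6.79% fell, and their median slope was 0.06 against -0.01 for all tested genes. With Jun 3 of 30 rose, with Junb 6, with Egr1 2, with Atf3 2 and with Ier2 11, and none fell. Of all genes tested, 0.742% rose with Jun, 0.669% with Junb, 0.191% with Egr1, 0.103% with Atf3 and 10.2% with Ier2. With Fosb, Egr2, Dusp1 and Nr4a1 none was called, and at an unadjusted p under 0.05 these had 4, 14, 11 and 1 rising and 1, 1, 0 and 0 falling, against the shares of all genes given above for these fits. The genes named next from these lists were picked after their values were seen.

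With Jun went its family member Jund, which rose by 0.29 ± 0.05 (SE; limma adjusted p = 0.00418), and Rhob, by 0.22 ± 0.04 (limma adjusted p = 0.00827). The third was Zfp36, whose protein destabilises short-lived messages; it rose by 0.20 ± 0.04 (limma adjusted p = 0.0223), a call lost without animal 4139. Of 17 upstream regulators 2 rose with Jun and 0 fell, where 0.742% of all genes rose and 0.103% fell. Srf, the serum response factor, rose by 0.21 ± 0.03 (limma adjusted p = 0.00176), and Mrtfa, its actin-sensing coactivator, by 0.15 ± 0.03 (limma adjusted p = 0.0202). Of 11 genes of ERK feedback 1 rose with Jun and 0 fell: Dusp5, a nuclear ERK phosphatase, rose by 0.28 ± 0.05 (limma adjusted p = 0.00748). Apart from Zfp36, the calls named here remained in 30 of 30 fits with 1 tumour left out. The r of Srf with Jun was 0.91 in deep and 0.71 in shallow libraries.

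With Junb rose Cebpd (0.42 ± 0.07, SE; limma adjusted p = 0.00101), Jund (0.28 ± 0.05; limma adjusted p = 0.00531) and Socs3 (0.28 ± 0.05; limma adjusted p = 0.00950), the last a brake on cytokine signalling through STAT3. These 3 calls were lost only without animal 4042. Ccn1, a secreted matrix protein gene and a target of YAP and SRF, rose by 0.38 ± 0.08 (limma adjusted p = 0.0156), Cebpb by 0.30 ± 0.07 (limma adjusted p = 0.0271) and Maff by 0.24 ± 0.06 (limma adjusted p = 0.0339). Ccn1 was lost without animal 4042 or 4139, Cebpb without either or animal 4378, and Maff without animal 4042 or 4378, so that none of the 6 remained called without animal 4042. With Egr1, Ccn1 rose by 0.40 ± 0.07 (limma adjusted p = 0.0177), lost without animal 4042 or 4139, and Cebpd by 0.36 ± 0.08 (limma adjusted p = 0.0408), which remained in 20 of 30 such fits. With Atf3, the zinc finger gene Klf6 rose by 0.28 ± 0.04 (limma adjusted p = 0.00226) and remained in 30 of 30 fits, while Rhob, at 0.20 ± 0.04 (limma adjusted p = 0.0477), remained in 11.

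With Ier2, 11 of 30 other immediate early genes rose against 10.2% of all genes. Among them Ier3, a survival gene, rose by 0.46 ± 0.07 (SE; limma adjusted p = 4.02e-05), Cebpb by 0.35 ± 0.06 (limma adjusted p = 0.000107) and Myc by 0.20 ± 0.06 (limma adjusted p = 0.00910). The list fell to 6 of 30 without animal 4042. Of 11 heat shock genes 4 rose with Ier2 and 0 fell, Hspb1, a small heat shock protein gene, by 0.22 ± 0.06 (limma adjusted p = 0.0137), a call lost without animal 4042. Of the 17 upstream regulators 3 rose and 4 fell with Ier2, where 10.2% of all genes rose and 11.8% fell, so such calls were common for any gene. Srf was among those that rose (0.17 ± 0.04, limma adjusted p = 0.00229). Among those that fell were the Srf partner Elk4 (-0.29 ± 0.06, limma adjusted p = 0.000464) and Creb1 (-0.15 ± 0.03, limma adjusted p = 0.000716).

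Fos itself moved with few genes of the whole table. In its fit 7 genes rose (0.0515%) and 1 fell (0.00735%), none of them an immediate early gene of the lists. Muc1, a membrane mucin of luminal epithelium, rose by 0.29 ± 0.05 (SE) per SD of Fos (limma adjusted p = 0.00690) and Muc4, another, by 0.82 ± 0.15 (limma adjusted p = 0.0215). Muc4 ran from 0.437 to 32.5 RPKM over the tumours. Slc45a3, a transporter gene, rose by 0.37 ± 0.07 (limma adjusted p = 0.0272). The others sat at the threshold, each with a limma adjusted p of 0.0428: the keratin gene Krt19 rose by 0.56 ± 0.11, the sialyltransferase gene St6gal1 by 0.40 ± 0.08, Lrg1 by 0.30 ± 0.06 and Zfp36l2 by 0.21 ± 0.04, and the steroid enzyme gene Cyp17a1 fell (-0.24 ± 0.05). Muc1 was still called in 28 of 30 fits with 1 tumour left out, Muc4 in 26 and Slc45a3 in 23, but the other 5 in only 5 to 8. Without animal 4547, the lowest for Fos, none of the 8 was called, and within the deep or the shallow libraries alone none was either. The r of Muc4 with Fos was 0.71 and rho 0.77 (n = 30, permutation p = 2e-05 and 1e-05; adjusted 0.0907 and 0.0340), with 0.79 without animals 4139 and 4547, 0.76 in deep and 0.78 in shallow libraries.

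For each of the 10, the 3 genes with the highest r over 30 tumours were named, leaving the 10 themselves out of the ranking. With the 10 included, Junb (0.75) stood first for Egr1 and Fos (0.58) first for Fosb. Outside the 10, the genes for Fos were Muc1 (0.76), Muc4 (0.71) and Slc45a3 (0.70), and for Fosb Mup19 (0.57), of a family of near-identical genes that can share reads, Aldh1a2 (0.55) and Lrrc26 (0.55). For Jun they were Src (0.85), the kinase gene, Rela (0.80), the NF-kB subunit gene, and Srf (0.79). For Junb they were Ier5l (0.80), Ubald2 (0.78) and Scand1 (0.77), and for Egr1 Tpbg (0.74), Smad6 (0.74), an inhibitor of BMP signalling, and Dcakd (0.72). Egr2 had Fjx1 (0.70), Irx1 (0.68) and Rhob (0.67), and Ier2 had Aup1 (0.87), Zfpl1 (0.86) and Ubald1 (0.86). Atf3 had Klf6 (0.78), Dusp22 (0.72), another phosphatase gene, and Pim1 (0.71). Dusp1 had Cdc42ep1 (0.67), Siglece (0.66) and Tmem52 (0.64), and Nr4a1 had the water channel gene Aqp5 (0.72), the epithelial factor gene Spdef (0.72) and Nrg2 (0.71). These were chosen as the highest outside the 10 genes, so the values are descriptions. For Jun, the first 3 kept r of 0.81, 0.78 and 0.72 without animals 4139 and 4150, and for Ier2 0.81, 0.81 and 0.83 without animals 4042 and 4139.

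Scores of 10 other lists, made as the mean of standardised marker levels, were set against the 10 genes. For macrophage, neutrophil, stroma matrix, adipocyte, skeletal muscle, T cell, proliferation, hypoxia and heat shock scores limma called none of the 10. At an unadjusted p under 0.05 there were 1, 0, 0, 0, 0, 0, 0, 3 and 2 genes rising and, for the T cell score, 2 falling. By that measure the shares of all genes were 13.2% rising and 9.32% falling (macrophage), 2.74% and 1.22% (neutrophil), 15.2% and 18.99% (stroma matrix), 11.9% and 10.4% (adipocyte), 6.75% and 7.17% (skeletal muscle), 9.67% and 4.85% (T cell), 15.9% and 14.5% (proliferation), 5.11% and 5.26% (hypoxia), and 10.9% and 17.3% (heat shock). The 1 gene rising with the macrophage score and the 2 with the heat shock score lay near these shares. After adjustment the shares of all genes were 6.2% rising and 1.5% falling (macrophage), 0.0956% and 0% (neutrophil), 10.1% and 10.8% (stroma matrix), 6.97% and 1.77% (adipocyte), 1.93% and 0.199% (skeletal muscle), 1.21% and 0.0662% (T cell), 9.62% and 8.25% (proliferation), 0.368% and 0.0441% (hypoxia), and 4.05% and 6.47% (heat shock). With the endothelial score 1 of 10 was called, where 10.5% of all genes rose and 13.3% fell, so the count lay near the share of all genes. The 1 was Dusp1, which rose by 0.17 ± 0.06 (SE, limma adjusted p = 0.0447). That call was lost without animals 3273 and 4036, where the slope was 0.11. Animal 3273, the highest for Dusp1, had the highest summed level of the 10 endothelial markers, 140.6 RPKM against a median of 71.3, and of the 9 skeletal muscle genes, 15018 RPKM against a median of 204.5. The part of these cells in the Dusp1 and Nr4a1 levels of that tumour was not tested.

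**Figure D5:**
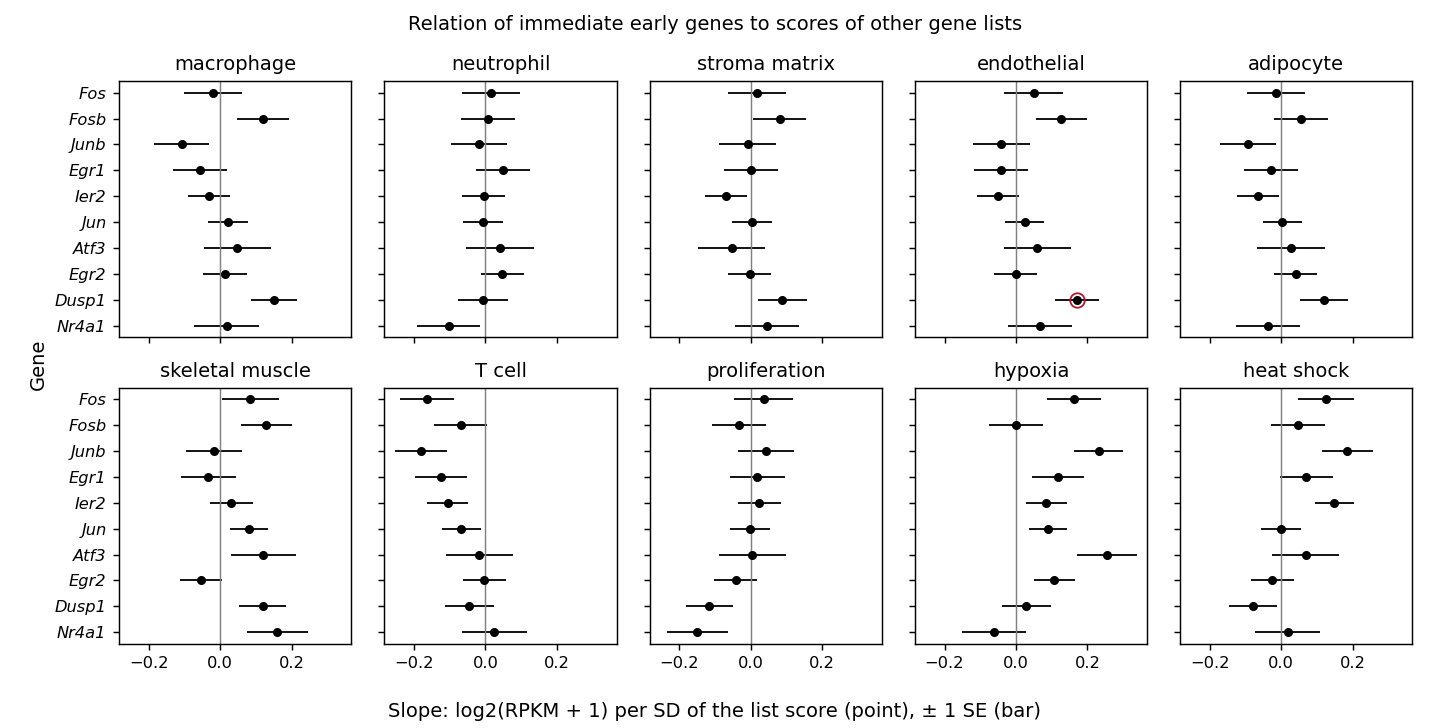
Slope of each of the 10 genes on each of 10 list scores, in log2(RPKM + 1) per SD of the score, as points with ± 1 SE bars, over 30 tumours. The ringed point is the only slope called, Dusp1 on the endothelial score (0.17), with which 10.5% of all genes rose. Junb and Atf3 on the hypoxia score (0.23 and 0.26) have the largest slopes and were not called.

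The largest slopes on any score were those of Atf3 (0.26 ± 0.08, SE; limma adjusted p = 0.270) and Junb (0.23 ± 0.07; limma adjusted p = 0.201) on hypoxia, neither called. Junb on heat shock (0.19 ± 0.07; limma adjusted p = 0.0888) and Ier2 on heat shock (0.15 ± 0.05; limma adjusted p = 0.0663) came nearer the threshold. With the class of depth as a covariate 3 such slopes were called, in fits whose shares of all genes called were not computed. Junb rose by 0.25 ± 0.06 (SE) per SD of the hypoxia score (limma adjusted p = 0.0294) and by 0.23 ± 0.06 per SD of the heat shock score (limma adjusted p = 0.0189), and Ier2 by 0.16 ± 0.05 per SD of the heat shock score (limma adjusted p = 0.0471). On the T cell score Junb (-0.18 ± 0.07, SE; limma adjusted p = 0.236) and Fos (-0.16 ± 0.08; limma adjusted p = 0.318) had slopes below 0, neither called. The summed T cell level was lowest, 14.5 RPKM, in animal 4139, against a median of 24.4. The part of T cell content in the Fos, Junb, Egr1 and Ier2 values was not tested.

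Insert size and depth did not call any of the 10 genes by limma. With insert size 0 of 10 passed, where 0.0147% of all genes rose and 0.0221% fell. None of the 10 had an unadjusted p under 0.05, where 5.68% of all genes rose and 7.24% fell by that measure. Between the classes of depth 0 of 10 passed, where 0.0221% of genes were higher in deep libraries and 1.22% lower. At an unadjusted p under 0.05, 2 of 10 were higher in deep libraries, where 2.8% of all genes were higher and 5.84% lower. The 2 were Junb, at 40.6 ± 14.9 RPKM in deep (SD, n = 14) and 29.4 ± 6.63 in shallow libraries (SD, n = 16), a difference of 0.42 ± 0.14 in log2(RPKM + 1) (SE; limma adjusted p = 0.181), and Egr1. Egr1 stood at 30.7 ± 12.1 RPKM in deep (SD, n = 14) and 22.97 ± 5.35 in shallow libraries (SD, n = 16), a difference of 0.36 ± 0.14 (SE; limma adjusted p = 0.291). Both groups overlapped for each gene, and animals 4042 and 4139 were deep libraries.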

How the data were processed

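Tumour RNA from 30 animals was poly-A selected, fragmented and size selected, as the protocols in the labels state. The authors deposited a single table of RPKM values for 27902 transcripts. Their unit was inferred from the values. The submitters' processing notes name CASAVA 1.7.0; the aligner, genome build and annotation release were not given in the sources used here. Transcripts took gene names by accession from a RefSeq table of GRCm38.p6 (26490) or GENCODE vM21 (154), and 1258 without a name (1.94% of the summed RPKM) and 692 small RNA transcripts were left out. Genes with more than 1 row (3303) kept the row with the highest mean. No 2 columns were identical.

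Library depth was read from low values of transcripts of 150 to 2500 bases: 75.7 to 86.5% of them fell within 0.12 of whole reads, where chance gives 24%, which was too few for a count test. The class of depth was defined after the file was seen. By this depth Egr2 had at least about 178 reads in any library and Egr1 at most about 34960. All tests used log2(RPKM + 1), so changes of low genes are understated, and covered the 13613 genes whose mean reached 1 RPKM, all 10 members among them. In R 4.3.3, limma 3.58.1 (trended empirical Bayes, two-sided) regressed every gene on each member, list score, insert size and class of depth; p-values were adjusted by Benjamini-Hochberg across every tested gene, with 0.05 as the threshold. Pearson r and Spearman rho had 100000 permutations each (two-sided), adjusted in the same way for each of the 10 members, and r was computed again after dropping the 2 tumours that lay farthest from the median for the gene regressed on. In a test on simulated data the Fos fit, run on 13612 genes, recovered 8% of slopes of 0.1, 62% of 0.25, 98% of 0.5 and 100% of 1. Of its calls there, 6.94% were false. Whether these shares hold for the measured data was not tested. In the measured Fos fit Junb (0.27, limma adjusted p = 0.127), Fosb (0.24, limma adjusted p = 0.185) and Egr1 (0.22, limma adjusted p = 0.258) were not called. At slopes of like size Muc1 (0.29), Cyp17a1 (-0.24) and Zfp36l2 (0.21) were called.

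Members, lists, tests and the rule for named genes were chosen with earlier results of these data known. The rule named the 10 members, listed pathway genes passing in the Fos fit, the highest and lowest of the other immediate early list, up to 10 genes in each direction in the Fos fit, and the 3 genes with the highest r for each member, passing over predicted genes without a name. Alternatives were a pseudocount of 0.1, a filter at 5 RPKM or none, insert size or depth class as a covariate, quantile normalization, subsets of the tumours and leaving out each tumour. The fits within depth classes and with left-out tumours for members other than Fos, and the test of slopes between classes, were chosen after seeing the data.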

Additional observations from a re-analysis of the deposited data

How the results depend on the processing

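None of the 70 called slopes changed sign: of 863 values under the alternatives, 532 were still called and 331 were not. The 8 genes called with Fos became 4 with no filter, 5 with insert size as a covariate, 14 with the class of depth as a covariate, 1 without the 2 tumours farthest from the median, and 0 in the deep or the shallow libraries alone; leaving out 1 tumour at a time gave 0 to 13, and 0 to 0 other members. Without the 2 farthest tumours the other members called were 0 with Junb, Egr1, Ier2 and Atf3, and the members called with the endothelial score were 0, as they were with no filter and with insert size as a covariate. With the class of depth as a covariate 1 member was called with the hypoxia score and 2 with the heat shock score. In the deep libraries alone 0 other members were called with Egr1, and in the shallow ones 0 with Jun, Junb, Egr1, Ier2 and Atf3, in fits on 14 and 16 tumours. The members called in the deep libraries alone were Atf3 and Ier2 with Jun, Egr1 and Ier2 with Junb, Jun, Junb and Atf3 with Ier2, and Jun with Atf3. Shares of all genes called were not computed for these fits, nor for the score fits with the class of depth as a covariate. The causes of the other changes were not tested. With a mean of at least 5 RPKM, Fosb and Egr2 left the table and gave no fit. Neither the pseudocount of 0.1 nor quantile normalization moved a count of members called. No paired analysis was possible because the labels give 1 group. Depth limits the low genes Fosb and Egr2 most.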
